A study of Mus musculus with 32 samples.

Results

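The guanylate-binding proteins (GBPs) of the mouse were followed across a microglial cell line treated with lipopolysaccharide and transfected with microRNA mimics. They were chosen by gene symbol, as Gbp2 to Gbp9, and these 8 symbols stood for 9 of the 45706 genes of the deposited table, since Gbp6 was listed under 2 gene identifiers. The cells were BV-2, an immortalized mouse line widely used as a stand-in for microglia, labelled as wild type, and 32 total RNA-seq libraries were made from them. Vehicle (VEH) or 10 ng/ml of lipopolysaccharide (LPS), a component of the outer membrane of Gram-negative bacteria, was given for 24 h. Each was combined with a scramble control mimic or with the mimic of a microRNA (miR-146a-5p, miR-29a-3p or miR-7a-5p), which gave 8 groups of 4 libraries, and the question addressed was how LPS and the mimics altered the transcriptome. The scramble groups therefore had been transfected as well, and no group was left without a mimic. The sample labels called the line a glioblastoma and gave an age of mice, neither of which describes BV-2, and they placed the LPS treatment before the transfection whereas the methods placed it after.

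GBPs are large GTPases of the dynamin superfamily that are among the genes most strongly switched on by interferons. In macrophages and microglia they assemble on the vacuoles of intracellular pathogens and on bacterial surfaces, break these open and thereby expose ligands for caspase-11 and for the AIM2 inflammasome. LPS reaches them mainly through Toll-like receptor 4, which leads to interferon beta, signalling through the interferon receptor, and activation of STAT2 and IRF9 at promoter elements called interferon-stimulated response elements (ISRE). Interferon gamma, the strongest inducer, acts at gamma-activated sites (GAS).

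Each mimic acts through bases 2 to 8 of the mature microRNA, the seed, which pairs with the 3′ untranslated region (3′UTR) of target transcripts. The mature sequences, taken from RefSeq, are shown with the seed in capitals because they define the 3 mimic groups.
mmu-miR-7a-5p: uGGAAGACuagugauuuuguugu
mmu-miR-29a-3p: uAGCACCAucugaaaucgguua
mmu-miR-146a-5p: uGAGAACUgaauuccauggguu
No seed was shared between them. The letters complementary to each seed were searched on the sense strand of the longest 3′UTR annotated for each gene in GRCm38, GENCODE vM21. GTCTTCC, which pairs with miR-7a, was present in 11.9% of 21037 genes, TGGTGCT, which pairs with miR-29a, in 13.1%, and AGTTCTC, which pairs with miR-146a, in 11.1%. Among the members, a miR-29a match lay in Gbp4, Gbp9 and the Gbp6 entry ENSMUSG00000079362, all on chromosome 5. The annotated span of this entry overlapped both Gbp10 and the other Gbp6 entry, ENSMUSG00000104713, whose own 3′UTR held no match. A miR-7a match lay in Gbp7, and AGTTCTC was found in none of the 9 entries. The 4 matches are printed with the paired letters in capitals, so that they can be set beside the response of each gene to its mimic.
Gbp4, miR-29a match, minus strand, chr5:105116092-105116121: aggagagatttTGGTGCTgtcttattggga
Gbp9, miR-29a match, minus strand, chr5:105077913-105077942: aggagagttctTGGTGCTgttttattggga
Gbp6 (ENSMUSG00000079362), miR-29a match, minus strand, chr5:105215231-105215260: gagagagatctTGGTGCTgttttattggga
Gbp7, miR-7a match, plus strand, chr3:142548638-142548667: gactaaatgatGTCTTCCtcatgggaaatg
The 3 miR-29a matches lay in nearly the same sequence context. A match is a description of the letters only.

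The members fell into 2 clusters (GRCm38, GENCODE vM21). On the plus strand of chromosome 3 lay Gbp5 (142493978-142522344), Gbp7 (142530342-142550149), Gbp3 (142560026-142573209) and Gbp2 (142620602-142638008), in this order. On the minus strand of chromosome 5 lay Gbp8 (105014150-105139540), Gbp9 (105077630-105139539) and Gbp4 (105115767-105139586), whose annotated spans overlapped each other, and the Gbp6 entries ENSMUSG00000104713 (105270702-105293698) and ENSMUSG00000079362 (105214907-105293695). All 9 were annotated as protein coding. Near-identical copies make some of these counts uncertain: of all runs of 31 bases in the annotated transcripts of Gbp6 (ENSMUSG00000104713), 57.6% also occurred in another Gbp gene, 51.4% in Gbp10 alone. The share was 31.1% for Gbp8, 18.3% for Gbp9 and 13.5% for Gbp4. On chromosome 3 it was lower, at 5.64% for Gbp3, 4.85% for Gbp2, 3.69% for Gbp7 and 0.195% for Gbp5. Reads from such stretches can be assigned to the wrong copy, so values of the chromosome 5 members, and of Gbp6 above all, are less certain than those of the chromosome 3 members.

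The libraries held between 1202183 and 20427111 estimated counts, with 1202183 to 5200912 in the VEH miR-7a group and 2716551 to 20427111 in the LPS scramble group. In 3 VEH miR-7a libraries (replicates 2, 3 and 4) over 30% of the counts came from structural RNA genes (annotated as ribosomal, small nuclear, small nucleolar and miscellaneous RNA), and they held at most 2460205 counts, whereas the highest share elsewhere was 18.9%. Every one of 11 microglial and macrophage markers was detected, with summed levels of 1813 to 4212 CPM (counts scaled to the size of the library) over the 32 libraries, although Csf1r, the receptor for colony-stimulating factor 1, stayed at or below 0.992 CPM. Gfap, the defining astrocyte marker, was at 0 in 26 libraries, and the 5 astrocyte and glioma markers summed to at most 2.14 CPM, so these markers gave the glioblastoma label no counterpart. The 3 endothelial markers summed to 90.1 to 225 CPM in VEH and 220 to 323 CPM in LPS libraries, nearly all of it Kdr, with Cldn5 at 0 in 31 libraries, and the part of this in the results was not tested. The file had lost the decimal marks of its estimated counts, and these were restored before any use. In all, 7 of the 288 member values could not be restored with a probability of 0.9, and in the text each such value is named as uncertain. Because the samples are bulk RNA, fewer cells with a transcript and less of it per cell cannot be told apart. The methods of the study refer to replicates of this cell line as independent experiments, and the labels give replicate numbers only.

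LPS raised each of the GBPs that could be tested in cells that carried the scramble mimic, some of them from levels at or near 0. The comparison was tested with limma, and a gene was called when its Benjamini-Hochberg adjusted p was under 0.05 and its log2 fold change exceeded 0.3 in size. Of the 9 entries, 5 could be tested and all 5 were called higher, against 9.86% of the 12314 genes tested. Their median log2 fold change was 3.24, against 0.02 over all genes. Members that were nearly absent under VEH, here Gbp2 and Gbp6, passed the filter on low counts only through their LPS libraries, so that they had to differ. No support is drawn from their calls and adjusted p-values, from the count of members called or from the median. The same holds for such members with the other mimics.

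Gbp2, which carries a lipid anchor and is recruited to pathogen vacuoles, was measured at 0.645, 0.819, 0 and 0.464 CPM in the 4 VEH scramble libraries and at 33.4, 84.8, 51.8 and 67.5 CPM in the 4 LPS scramble libraries. The lowest LPS library thus lay far above the highest VEH library. The fitted log2 fold change was 6.94 ± 0.68 (SE, limma adjusted p = 9.15e-05). Gbp3, another chromosome 3 member, was measured at 1.76, 1.89, 1.75 and 1.16 CPM under VEH and at 16.9, 14.8, 15.6 and 16.4 CPM under LPS. It showed the smallest spread of the family relative to its mean in the LPS scramble group, with a mean of 15.9 ± 0.918 CPM (SD, n = 4), and rose 9.43-fold (log2 fold change 3.24 ± 0.27, adjusted p = 3.2e-05).

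Gbp5, which promotes assembly of the NLRP3 inflammasome in macrophages, was not seen in any VEH scramble library and was measured at 0, 1.11, 1.64 and 0.425 CPM under LPS. An LPS library had no read either, and the gene did not pass the filter on low counts. Summed over the group, 48 reads under LPS stood against 0 under VEH, and against a floor of 3 reads over the VEH group this was at least 6.86-fold higher. Gbp7, needed for host defence against intracellular bacteria and parasites, was measured at 4.36 (uncertain), 3.29, 0.751 and 1.74 CPM under VEH and at 14.8, 9.16, 14.1 and 11.7 CPM under LPS. As read, all 4 LPS values lay above all 4 VEH values. The uncertain value would be 0.436 CPM with 3 decimals, which keeps this, and 43.6 CPM with 1, which would lie above every LPS library. With the most probable reading kept, Gbp7 was called, with a log2 fold change of 2.37 ± 0.42 (adjusted p = 0.00396).

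On chromosome 5, Gbp6 was measured at 0, 0, 0.25 and 0.116 CPM under VEH and at 15.9, 31.6, 22.6 and 21.7 CPM under LPS. Only 2 reads were counted in the whole VEH group, so the ratio of the summed CPM, 274, has a counting interval from 75.6 to 2263 (95%, exact binomial, counting error only). The fitted log2 fold change was 7.12 ± 0.51 (adjusted p = 1.55e-05), and part of these reads may belong to Gbp10. Its second identifier, ENSMUSG00000079362, had values above 0 in 5 of the 32 libraries, all of them treated with LPS, and was tested nowhere.

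Gbp8 and Gbp9, less studied chromosome 5 members, were the members with a clear level before LPS. Gbp9 was measured at 5.36, 4.76, 3.90 and 2.00 CPM under VEH and at 22.7, 21.6, 21.4 and 15.1 CPM under LPS. Gbp8 was measured at 5.92, 2.85, 5.11 and 3.91 CPM under VEH and at 11, 11.7, 17.8 and 11.1 CPM under LPS. Neither gene had an LPS library within the range of the VEH libraries. Gbp9 rose 5.3-fold (log2 fold change 2.40 ± 0.32, adjusted p = 0.000497) and Gbp8 2.82-fold (1.5 ± 0.28, adjusted p = 0.00418), the smallest change among the members called. Gbp4 was measured at 16.4 (uncertain), 0.567, 0.25 and 0.239 CPM under VEH and at 1.08, 2.09, 2.61 and 1.35 CPM under LPS. Whether its groups overlapped turned on the uncertain value, which would be 1.64 CPM with 1 decimal and 0.164 CPM with 2. With the most probable readings kept, 6 of 7 members tested were called higher, against 8.73% of all genes, and Gbp4 was not among them, with a difference on the log2 scale between -1.2 and 2.61 (2 SE on either side).

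**Figure D1:**
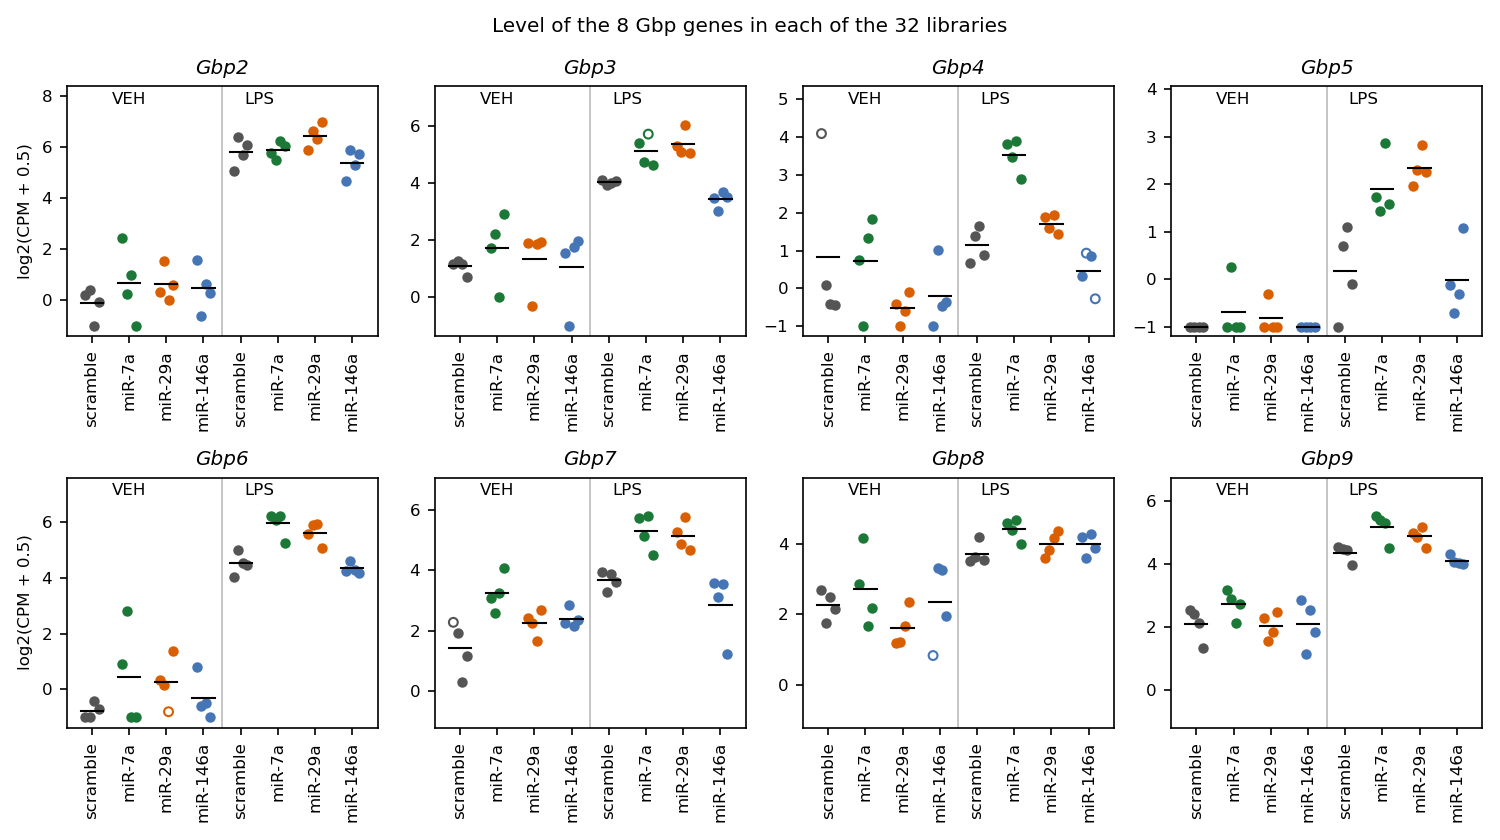
Level of each GBP in the 32 libraries as log2(CPM + 0.5), by treatment and mimic, where each point is a library, a hollow point an uncertain reading and a bar the mean of the group. The group means lie higher in LPS than in VEH scramble libraries, for Gbp4 by a small step with its uncertain VEH reading above every LPS library, and under LPS the means of the miR-7a and miR-29a groups lie above the scramble group for Gbp3, Gbp5, Gbp6 and Gbp7.

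The response to LPS was present with each of the other mimics as well. With miR-29a, 7 of 7 members tested were called higher (13.8% of 12212 genes), with a median log2 fold change of 3.27 against 0.02 over all genes. The log2 fold changes were 6.41 ± 0.54 for Gbp2, 4.13 ± 0.53 for Gbp3, 3.27 ± 0.44 for Gbp4, 2.95 ± 0.37 for Gbp7, 2.90 ± 0.28 for Gbp9 and 2.39 ± 0.34 for Gbp8, with adjusted p-values from 1.33e-05 to 0.000422. Gbp5 had 1 read in the whole VEH group, so that its fitted value (5.25 ± 0.57) depends on the offset added to the counts, and the ratio of its summed CPM, 116, has a counting interval from 20.7 to 4615. Gbp6 held an uncertain value in this group of VEH libraries, and with most probable readings it was called too, which made 8 of 8 members (12.2% of all genes), with 5.96 ± 0.67 on the log2 scale.

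With miR-7a, 7 of 7 members tested were called higher after LPS, against 3.3% of 11848 genes, but 3 of the 4 VEH libraries behind this were those of over 30% structural RNA. The log2 fold changes were 5.61 ± 0.82 for Gbp6, 4.78 ± 0.63 for Gbp2, 2.86 ± 0.66 for Gbp4, 2.24 ± 0.41 for Gbp9, 2.05 ± 0.45 for Gbp7 and 1.57 ± 0.40 for Gbp8, with adjusted p-values from 0.00071 to 0.0342. Gbp5 again rested on 1 read under VEH, with a fitted value of 3.17 ± 0.80 (adjusted p = 0.0344) and a ratio of summed CPM of 37.2 (counting interval 6.59 to 1479). Gbp8 was called although its groups overlapped, since VEH miR-7a replicate 2, of 38.6% structural RNA, held 17.3 CPM. When the 3 libraries of over 30% structural RNA were left out, the VEH arm was a lone library assumed to vary like the others. Gbp2 was then the only member called, with 3.55 ± 0.50 (adjusted p = 0.0216), 1 of 7 tested against 0.36% of all genes. For the 6 others the log2 fold changes lay between 1.57 and 5.35 with adjusted p-values from 0.0568 to 0.335. With most probable readings 7 of 8 members were called (2.66% of all genes), Gbp3 among them at 3.49 ± 0.67 (adjusted p = 0.0119), while Gbp5 missed the threshold with an adjusted p of 0.0525.

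With miR-146a, 4 of 5 members tested were called higher, against 2.93% of 12096 genes. The log2 fold changes were 6.09 ± 0.70 for Gbp6 (adjusted p = 0.000362), 5.66 ± 0.81 for Gbp2 (0.00133), 3.08 ± 0.82 for Gbp3 (0.0495) and 2.24 ± 0.34 for Gbp9 (0.00173). Gbp7 did not pass, at 0.76 ± 0.45 (adjusted p = 0.406, interval -0.13 to 1.65). Its 4 LPS libraries, at 11.4, 8.18, 11.2 and 1.88 CPM, overlapped the VEH libraries at 4.30, 6.77, 3.95 and 4.60 CPM through replicate 4. The call of Gbp3 was lost (adjusted p = 0.0677) when the most probable readings were kept, which brought in Gbp8 at 1.34 ± 0.40 (adjusted p = 0.093, interval 0.54 to 2.14) and left 3 of 6 members called against 2.67% of all genes. With a library left out, Gbp3 lost its call in 7 of 8 fits. Gbp5 was again absent from all 4 VEH libraries, and its 14 reads under LPS were at least 3.53-fold above the floor of 3 reads over the group.

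**Figure D2:**
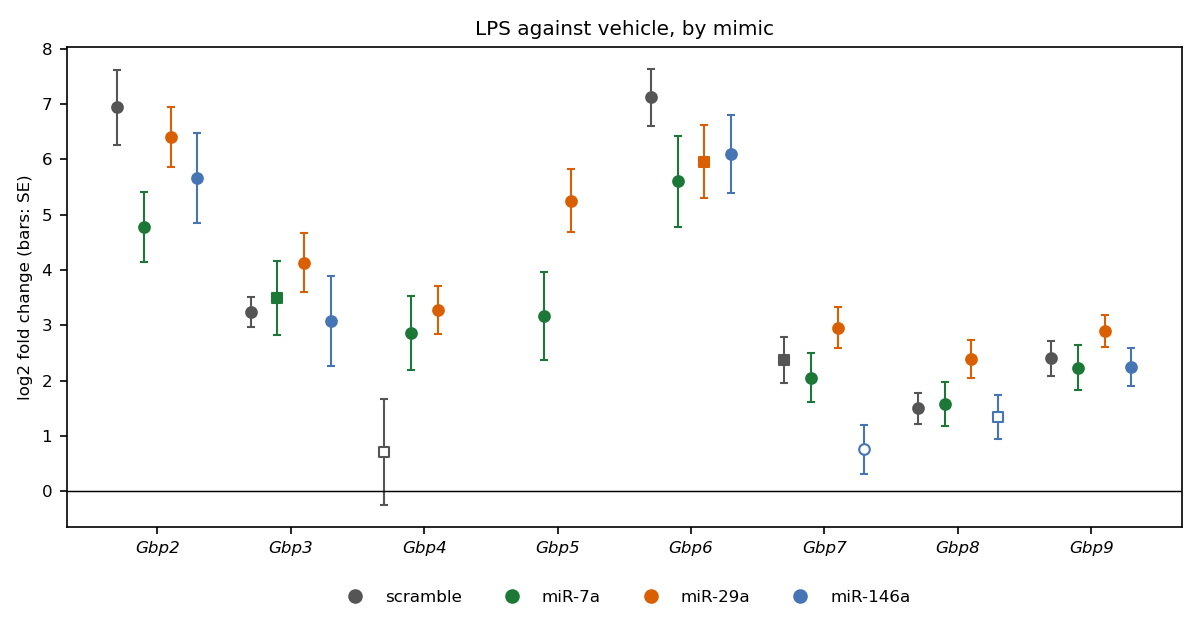
Log2 fold change of each GBP, LPS against VEH, within each mimic, with bars of 1 SE, where circles are the tests without uncertain values and squares those with the most probable readings, filled if called. Gbp2 and Gbp6 lie between 4.69 and 7.12 in all 4 mimic groups, Gbp5 with miR-29a lies at 5.25, and Gbp7 with miR-146a lies near 0.76 and is not filled.

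Levels can be compared between genes only per length, and per kb of exon the order under LPS began with Gbp2 in each mimic group. In the LPS scramble group Gbp2 stood at 23.6 ± 8.72 CPM per kb (SD, n = 4). It was followed by Gbp3 at 4.88 ± 0.281, Gbp9 at 3.91 ± 0.668, Gbp6 at 3.86 ± 1.09 and Gbp8 at 3.75 ± 0.961 CPM per kb, and the last 3 did not differ beyond their SD. Gbp7 followed at 2.22 ± 0.455, and Gbp4 at 0.238 ± 0.0934 and Gbp5 at 0.120 ± 0.11 CPM per kb closed the order, with SDs that overlapped. The second Gbp6 entry, ENSMUSG00000079362, was left out of this order, at 0.416 ± 0.570 CPM per kb in this group and with 0 in 2 of its 4 libraries. With miR-7a, Gbp3 (11 ± 4.0, with its uncertain reading included), Gbp6 (10.6 ± 2.96), Gbp7 (7.36 ± 2.75) and Gbp9 (7.2 ± 1.98 CPM per kb) lay close together below Gbp2 (24.0 ± 5.4). Gbp8 followed at 6.12 ± 1.24 CPM per kb, within the SDs of Gbp7 and Gbp9. In the VEH scramble group Gbp8 stood at 1.29 ± 0.391 CPM per kb, and Gbp5 at 0.

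**Figure D3:**
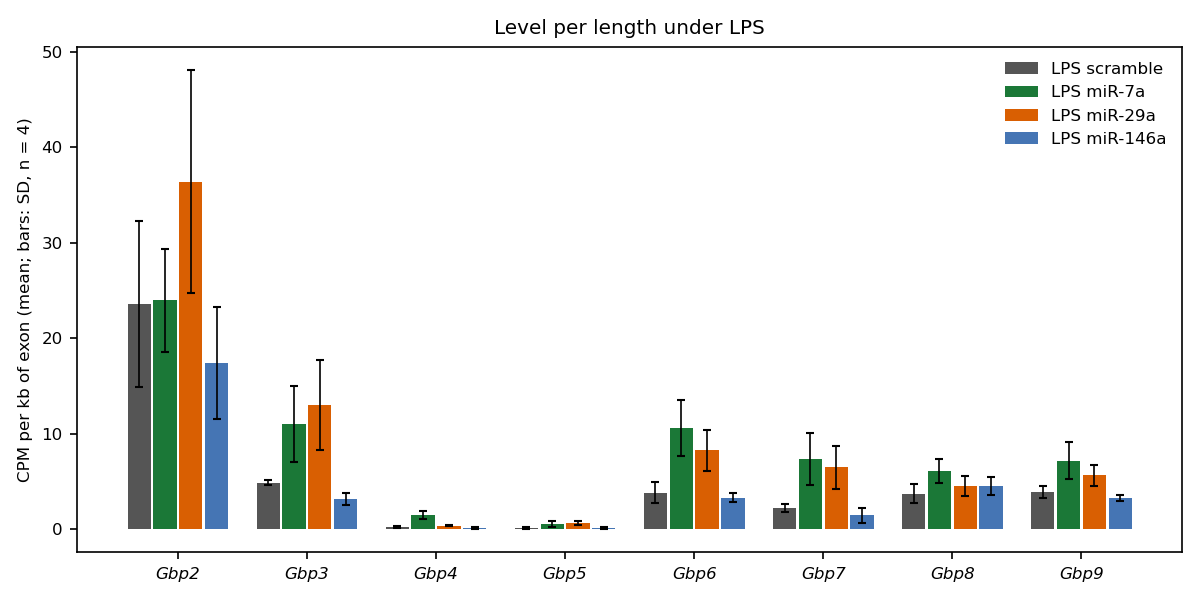
Mean level of the 8 GBPs in CPM per kb of exon in the 4 LPS groups (of Gbp6, the entry ENSMUSG00000104713), with error bars of 1 SD (n = 4) and bars that start at 0. Gbp2 is highest in every group, from 17.4 CPM per kb with miR-146a to 36.4 with miR-29a, and of the entries drawn Gbp4 and Gbp5 are lowest. The means of Gbp3 with miR-7a and of Gbp4 with miR-146a include uncertain readings.

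Promoters were available from RefSeq (GRCm38.p6) for the 4 members on chromosome 3, as windows from 250 bases before to 50 bases after the start of the gene in RefSeq. For Gbp5 this start lay 2956 bases inside the span given above, and for the others within 61 bases of its beginning, apart from a second start of Gbp3. They are shown because each of the 4 genes was called higher after LPS in at least 1 of the mimic groups, Gbp5 only where it passed the filter through its LPS libraries, with the ISRE core GAAANNGAA and the GAS letters TTCNNNGAA, searched on both strands, in capitals. The 2 motifs did not overlap each other in these windows.
Gbp2, + strand, chr3:142620413-142620712: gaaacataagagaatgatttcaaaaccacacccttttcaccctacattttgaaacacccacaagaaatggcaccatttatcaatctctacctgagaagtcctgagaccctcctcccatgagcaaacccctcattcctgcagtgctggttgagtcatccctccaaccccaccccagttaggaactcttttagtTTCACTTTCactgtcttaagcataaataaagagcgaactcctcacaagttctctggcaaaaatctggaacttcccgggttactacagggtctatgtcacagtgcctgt
Gbp3, + strand, chr3:142559794-142560093: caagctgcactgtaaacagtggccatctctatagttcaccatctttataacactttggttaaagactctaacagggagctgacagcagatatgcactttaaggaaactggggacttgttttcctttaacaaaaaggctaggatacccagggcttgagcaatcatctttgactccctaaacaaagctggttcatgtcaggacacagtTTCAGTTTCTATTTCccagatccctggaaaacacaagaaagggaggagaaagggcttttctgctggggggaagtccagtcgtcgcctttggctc
Gbp5, + strand, chr3:142496684-142496983: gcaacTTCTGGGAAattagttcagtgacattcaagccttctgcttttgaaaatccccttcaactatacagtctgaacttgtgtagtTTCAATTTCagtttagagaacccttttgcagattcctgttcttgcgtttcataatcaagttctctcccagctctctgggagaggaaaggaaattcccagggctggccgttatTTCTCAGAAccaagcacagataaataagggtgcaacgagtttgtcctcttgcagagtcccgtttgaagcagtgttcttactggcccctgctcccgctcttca
Gbp7, + strand, chr3:142530086-142530385: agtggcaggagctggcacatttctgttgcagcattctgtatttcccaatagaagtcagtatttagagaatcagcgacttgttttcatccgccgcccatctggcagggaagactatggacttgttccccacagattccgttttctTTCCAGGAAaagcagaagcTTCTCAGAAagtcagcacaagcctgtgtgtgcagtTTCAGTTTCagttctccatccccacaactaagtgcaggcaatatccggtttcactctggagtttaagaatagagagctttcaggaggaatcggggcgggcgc
Each of the 4 windows held at least 1 ISRE core, in every case on the strand opposite to the gene, so that the printed letters are the reverse complement of GAAANNGAA. The core lay 49 bases before the start of Gbp2 and 43 bases before that of Gbp7. In Gbp3 a pair of cores 35 and 29 bases before the start overlapped, and the second start of Gbp3 had none. In Gbp5 the core lay 155 bases before the start, with GAS letters at 236 and 43 bases, and Gbp7 had GAS letters at 97 and 78 bases. Over all 32851 promoters of the table, 8.56% held the ISRE core and 8.30% the GAS letters. Such a match is not evidence that a factor was bound.

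Under LPS, the miR-7a mimic went with higher levels of several GBPs than the scramble mimic. Of 7 members tested, 3 were called higher and none lower, against 1.58% of the 13008 genes called higher, and the median log2 fold change was 1.37 against 0.00 over all genes. Same-numbered libraries of the 2 groups deviated together, and with the replicate number as a block 6 of 7 were called higher, against 4.24% of all genes. The 3 comparisons of mimic and scramble under LPS share the 4 LPS scramble libraries, whose values are those given above. Gbp5 was too low to be tested in the LPS scramble and LPS miR-146a libraries by themselves, so in comparisons under LPS it passed the filter only through the miR-7a or miR-29a libraries, where it was high. Its calls there are therefore no support for a difference, and the counts of members called that hold it are to be read with this in mind.

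Gbp4, which has been described as a brake on the interferon regulatory factor Irf7, was measured at 13.5, 10.6, 14.4 and 6.91 CPM with miR-7a. The lowest of these was more than the highest of the scramble libraries, 2.61 CPM. The log2 fold change was 2.58 ± 0.33, or 5.97-fold (adjusted p = 0.0041), the largest of the members called. Gbp7, whose 3′UTR holds the miR-7a match, was measured at 52.7, 35.0, 55.2 and 22.5 CPM, all above the scramble libraries, and rose by 1.71 ± 0.29 on the log2 scale (adjusted p = 0.0141). Gbp6 was measured at 74.0, 67.1, 74.2 and 37.2 CPM, again without overlap, and rose by 1.37 ± 0.25 (adjusted p = 0.0171). When LPS scramble replicate 4 was left out, calls in either direction fell from 2.69% to 0.5% of all genes, and only Gbp4 of 7 members was called. The differences were then 1.32 ± 0.29 for Gbp6 (adjusted p = 0.0818) and 1.69 ± 0.35 for Gbp7 (adjusted p = 0.0726).

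Gbp5 was measured at 2.81, 2.20, 6.81 and 2.50 CPM, all above the highest scramble library at 1.64 CPM. Its difference of 2.23 ± 0.58 missed the threshold (adjusted p = 0.0669, interval 1.06 to 3.4) and passed it with the block (2.10, adjusted p = 0.0156). Gbp9 was measured at 45.7, 41.7, 39.2 and 22.4 CPM and Gbp8 at 23.4, 20.3, 25.1 and 15.4 CPM, and in each gene replicate 4 lay within the range of the scramble libraries. Gbp9 (0.88 ± 0.23, adjusted p = 0.0676, interval 0.42 to 1.34) and Gbp8 (0.69 ± 0.21, adjusted p = 0.109, interval 0.27 to 1.11) were called with the block, with adjusted p-values of 0.00166 and 0.0264. Gbp9 was also called in a fit over 32 libraries and when LPS miR-7a replicate 4 was left out. Gbp3 was measured at 41.3, 26.3, 51.9 (uncertain) and 24.3 CPM against 14.8 to 16.9 CPM with scramble. It was called when this reading was kept (1.12 ± 0.24, adjusted p = 0.0471), which gave 4 of 8 members against 1.29% of all genes. The uncertain value would be 519 CPM with 1 decimal and 5.19 CPM with 3. Gbp2 was measured at 54.6, 45, 76.4 and 65.5 CPM, inside the range of the scramble libraries, with a difference of 0.01 ± 0.24 (adjusted p = 0.993) between -0.48 and 0.49, which took the other sign with median-of-ratios scaling.

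The miR-29a mimic also went with higher GBP levels under LPS. All 8 members could be tested on the 8 libraries, and 4 were called higher and none lower, against 2.01% of the 13211 genes called higher, with a median of 0.87 on the log2 scale against 0.01. Same-numbered libraries deviated together here too, and with the block 6 of 8 were called higher against 4.29% of all genes. The block added Gbp2 (0.64, adjusted p = 0.0162) and Gbp9 (0.57, adjusted p = 0.0222).

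Gbp5 was measured at 3.37, 4.40, 6.59 and 4.26 CPM with miR-29a, without overlap with the scramble libraries, and rose by 2.81 ± 0.51 on the log2 scale, or 6.99-fold (adjusted p = 0.0129). Gbp7 was measured at 38.5, 28.7, 53.4 and 24.8 CPM, all above the scramble libraries, and rose 3.03-fold (1.60 ± 0.26, adjusted p = 0.00912). Gbp3 was measured at 39.1, 33.1, 65.4 and 32.5 CPM, each well above every scramble library, and rose 2.66-fold (1.41 ± 0.23, adjusted p = 0.00926). Gbp6 was measured at 46.4, 58.2, 59.5 and 32.6 CPM, its lowest library just above the highest scramble library at 31.6 CPM, and rose 2.11-fold (1.08 ± 0.22, adjusted p = 0.0229). Without LPS scramble replicate 4, calls in either direction fell from 4.59% to 1.13% of all genes and 2 of 8 members were called. Gbp5 (2.29 ± 0.56, adjusted p = 0.0811) and Gbp6 (1.02 ± 0.26, adjusted p = 0.0932) then missed the threshold.

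No member was called lower with miR-29a, those with a miR-29a match in the 3′UTR included. Gbp4 was measured at 3.22, 2.50, 3.30 and 2.18 CPM, overlapping the scramble libraries, with a difference of 0.65 ± 0.30 (adjusted p = 0.234, interval 0.06 to 1.25). Gbp9 was measured at 31, 28.7, 35.6 and 22.1 CPM, of which the last lay within the scramble range, with 0.62 ± 0.19 (adjusted p = 0.0848, interval 0.24 to 1.00). The Gbp6 entry with the match was too low to be tested. Gbp2 was measured at 58.9, 98.6, 80.4 and 128 CPM and Gbp8 at 11.6, 13.6, 17.2 and 20.1 CPM, and both overlapped the scramble libraries. Their differences were 0.59 ± 0.27 (adjusted p = 0.234, interval 0.05 to 1.12) and 0.29 ± 0.21 (adjusted p = 0.481, interval -0.14 to 0.71). Keeping the most probable readings left 4 of 8 members called, against 1.75% of all genes.

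With the miR-146a mimic no member was called against scramble under LPS, of 6 tested, while 2.2% of 12599 genes were called in either direction by limma. At an unadjusted p under 0.05 there was 1 member, Gbp3, and there were 2163 genes in all. Gbp3 was measured at 10.7, 7.64, 12.3 and 11 CPM, all below the lowest scramble library at 14.8 CPM, and its difference was -0.62 ± 0.18 (adjusted p = 0.103, interval -0.98 to -0.26). Gbp2 was measured at 25.4, 58.6, 38.7 and 52.5 CPM, lower than the same-numbered scramble library in 4 of 4 pairs but with overlapping groups, and its difference was -0.58 ± 0.29 (adjusted p = 0.33, interval -1.15 to -0.01). With the replicate block, Gbp2 was called lower (-0.44 ± 0.12, adjusted p = 0.0417), 1 of 6 members against 9.89% of all genes called in either direction. Gbp7 (-0.51, interval -1.23 to 0.20), Gbp6 (-0.25, interval -0.63 to 0.13), Gbp9 (-0.18, interval -0.54 to 0.17) and Gbp8 (0.28, interval -0.17 to 0.72) did not pass in either fit. Gbp6 held 18.6, 23.8, 19.1 and 17.4 CPM, and Gbp9 19.4, 16.4, 15.9 and 15.6 CPM. Gbp4, at 0.751, 1.41 (uncertain), 1.31 and 0.328 (uncertain) CPM, and Gbp5, at 0.413, 0.111, 0.299 and 1.61 CPM, lay at the low levels of the scramble group.

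The mimics were then compared with each other under LPS, in 3 pairs. Between miR-29a and miR-7a, Gbp4 was the only member called of 7 tested, against 3.66% of 12831 genes in either direction. It was 3.82-fold lower with miR-29a, at 2.18 to 3.30 CPM against 6.91 to 14.4 CPM without overlap (log2 fold change -1.94 ± 0.29, adjusted p = 0.00407). For the 6 others the difference, miR-29a minus miR-7a, had intervals of 0.11 to 1.05 for Gbp2, -0.18 to 1.23 for Gbp5, -0.80 to 0.19 for Gbp6, -0.73 to 0.48 for Gbp7, -0.83 to 0.01 for Gbp8 and -0.73 to 0.18 for Gbp9.

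Several GBPs were higher with miR-29a and with miR-7a than with miR-146a. With miR-29a, 6 of 7 members tested were called higher, against 5.35% of 12484 genes. The log2 differences were 3.49 ± 0.59 for Gbp5, 2.12 ± 0.41 for Gbp7, 2.02 ± 0.29 for Gbp3, 1.30 ± 0.22 for Gbp6, 1.12 ± 0.28 for Gbp2 and 0.79 ± 0.19 for Gbp9, with adjusted p-values from 0.00141 to 0.022. Gbp8, at 11.5 to 18.9 CPM with miR-146a and 11.6 to 20.1 CPM with miR-29a, differed by -0.01, between -0.46 and 0.44. With most probable readings Gbp4 was added (1.48, adjusted p = 0.0468), and 7 of 8 were called against 5% of all genes. With miR-7a, 4 of 6 members tested were called higher than with miR-146a, against 3.72% of 12500 genes, namely Gbp5 (2.92 ± 0.69, adjusted p = 0.0283), Gbp7 (2.24 ± 0.44, adjusted p = 0.0137), Gbp6 (1.59 ± 0.24, adjusted p = 0.00475) and Gbp9 (1.06 ± 0.24, adjusted p = 0.0231). Gbp2 (interval 0.03 to 1.04) and Gbp8 (interval -0.05 to 0.84) were not called. Most probable readings added Gbp3 (1.72, adjusted p = 0.011) and Gbp4 (3.41, adjusted p = 0.00601), to 6 of 8 members against 3.37% of all genes. When LPS miR-146a replicate 1, 2 or 3 was left out, 2 members were called against miR-7a, and calls in either direction over all genes fell from 6.18% to 2.49%, 3.36% and 1.77%. Over the 8 fits with a library left out, the call of Gbp9 between miR-7a and miR-146a was lost in 5 and that of Gbp5 in 4, and the call of Gbp9 between miR-29a and miR-146a was lost in 3.

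Under VEH few GBPs could be tested against scramble: of the 27 entries of the 3 comparisons, 13 were too low, 8 held an uncertain value, Gbp4 and Gbp7 in each comparison, and 6 were tested. In each of the 3 comparisons of a mimic with scramble under VEH, 2 members passed the filters and none was called by limma, while 0.171% of 11119 genes were called with miR-7a, 0.0171% of 11667 with miR-29a and 2.03% of 11774 with miR-146a. At an unadjusted p under 0.05 there was 1 member with miR-7a and none with the others, against 1423, 1208 and 2970 genes in all. Gbp7 was measured at 7.99, 5.59, 9.09 and 16.3 CPM with miR-7a, 4.93, 4.24, 2.69 and 5.98 CPM with miR-29a and 4.30, 6.77, 3.95 and 4.60 CPM with miR-146a. Its miR-7a libraries lay above all VEH scramble libraries, the highest of which was the uncertain 4.36 CPM, and 3 of the miR-7a libraries were those of over 30% structural RNA. Gbp9 stood at 4.00 ± 1.47 CPM (SD, n = 4) with scramble, and the means with miR-146a (4.23 ± 2.25), miR-29a (3.71 ± 1.16) and miR-7a (6.36 ± 1.96) were compared with it. With miR-7a its difference was 1.03 ± 0.42 on the log2 scale (adjusted p = 0.33, interval 0.19 to 1.88), and it was the member at an unadjusted p under 0.05. With miR-29a the difference lay between -0.66 and 0.86, and with miR-146a between -0.97 and 0.88. Gbp5 had 1 read in the VEH miR-7a group and 1 in the VEH miR-29a group.

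Whether a mimic acted differently under LPS and VEH was tested as an interaction over 16 libraries. No member was called, where limma called 0.0897% of 12265 genes with miR-7a (5 members tested), 0.0242% of 12384 with miR-29a (5 tested) and 0% of 12426 with miR-146a (4 tested). At an unadjusted p under 0.05 there were 0, 1 and 0 members in this order, against 837, 793 and 1368 genes. The higher GBP levels with miR-7a and miR-29a under LPS were therefore not shown to differ from those under VEH, where few members could be tested.

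The other genes of the interferon pathway were taken from lists by role. The ligands were not measurable: Ifng and Ifna4 were at 0 in 31 libraries and Ifnb1, which encodes interferon beta, in 30, with at most 1 read. Of 7 receptors and kinases, LPS raised Jak2, a kinase of the interferon gamma receptor (0.95 on the log2 scale, adjusted p = 0.0179), in scramble cells, and no other passed. Among the transcription factors Irf7, the amplifier of the interferon response, rose most, from 20.8 ± 9.48 to 299 ± 74.5 CPM (SD, n = 4; 3.87, adjusted p = 3.2e-05). Irf9 (1.47) and Stat2 (0.85), which act together at ISREs, rose as well, and Irf3, named here after its value was seen, fell by 0.82. The 3 feedback inhibitors tested rose, by 2.16 for Usp18, 1.76 for Socs3 and 0.77 for Ptpn2.

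The partner GTPases, a list of immunity-related GTPases, which act with GBPs on pathogen vacuoles, and of Gvin1, a very large inducible GTPase, rose in 7 of 7 tested in scramble cells, by 0.94 to 3.42, and Gm12250 (3.42) and Tgtp2 (3.07) rose most. Interferon targets that restrict membranes and viruses rose in 9 of 9 tested, with a median of 3.38, and Ifit3 rose most, from 0.285 ± 0.330 to 17.9 ± 5.63 CPM (5.94, adjusted p = 0.000279). Of 7 inflammasome genes tested, which lie downstream of GBPs, 2 rose, Casp4, which encodes the LPS sensor caspase-11, by 1.99 and Il1b by 4.02. The counts are to be read beside the 9.86% of all genes that were called higher. List genes near 0 under VEH, such as Ifit3, passed the filter only through their LPS libraries and so had to differ, as with the GBPs, and no support is drawn from the counts or the median.

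Under LPS, miR-7a against scramble raised 3 of 8 partner GTPases tested, Iigp1 (3.03, adjusted p = 0.0215), Tgtp2 (1.68, adjusted p = 0.0239) and Irgm1 (0.82, adjusted p = 0.039). It raised 4 of 9 interferon targets tested, Cmpk2 (1.72), Ifit3 (1.69), Rsad2 (1.52) and Ifit2 (1.49). No receptor, transcription factor, feedback inhibitor or inflammasome gene passed. Iigp1, at a mean of 0.658 CPM with scramble, passed the filter on low counts through the miR-7a libraries. These counts stand beside the 1.58% of all genes called higher with miR-7a. With miR-29a, 6 of 8 partner GTPases and 5 of 7 interferon targets were called higher, against 2.01% of all genes, with medians of 1.2 and 1.55, and Cmpk2 was highest among the targets at 2.67. Rsad2, which encodes the antiviral enzyme viperin, rose from 135 ± 42.0 to 418 ± 136 CPM (1.64, adjusted p = 0.00737). Here upstream genes passed too, among them Stat2 (43.2 ± 7.11 to 110 ± 18.3 CPM, 1.37, adjusted p = 0.00247) and Jak2 (0.55, adjusted p = 0.0273). The feedback inhibitor Usp18 (1.2, adjusted p = 0.00917) passed as well, and no inflammasome gene did. With miR-146a none of 6 partner GTPases and none of 9 interferon targets tested was called, where 2.2% of all genes were called in either direction, with medians of -0.32 and -0.59, and Socs3, a feedback inhibitor of cytokine signalling, fell by 0.68 (adjusted p = 0.0452).

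**Figure D4:**
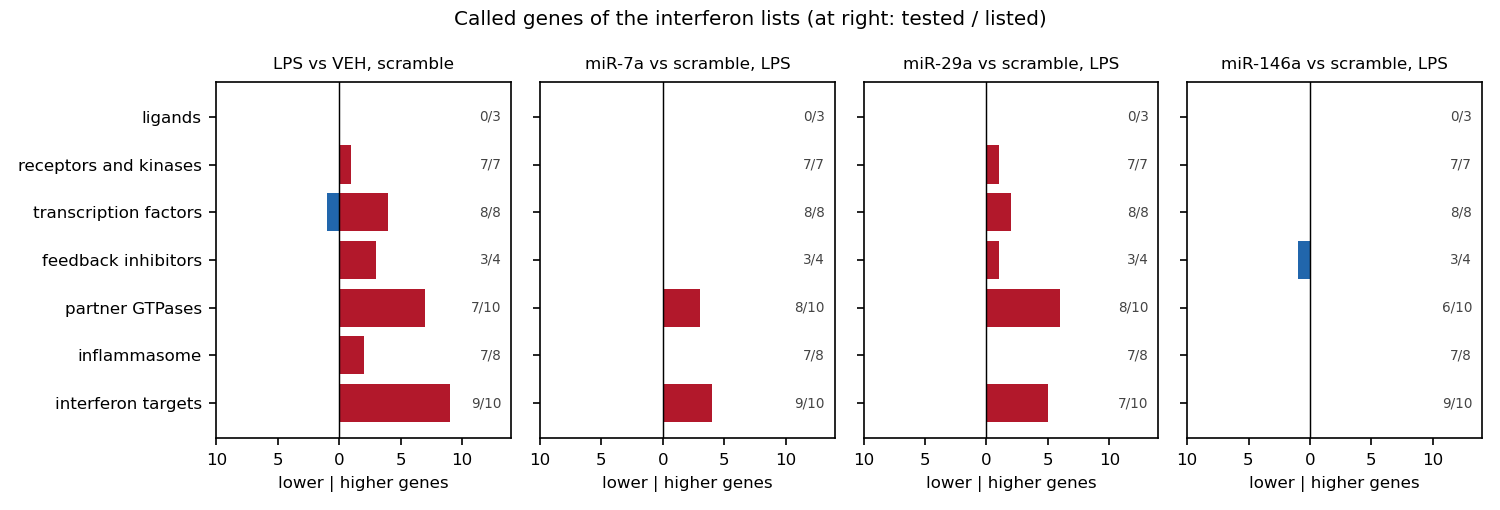
Number of genes called higher or lower in each list of the interferon pathway, for LPS against VEH in scramble cells and for each mimic against scramble under LPS, with the number tested and listed at the right. The partner GTPases hold 7, 3, 6 and 0 called genes and the interferon targets 9, 4, 5 and 0.

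Gbp9 was the only member that could be tested in all pairwise comparisons, and the genes most like it across the 32 libraries were found by Pearson correlation of log2(CPM + 0.5) among 10662 genes, as a description. They were Irg1 (0.944), which makes itaconate in activated macrophages, Irgm1 (0.943), Mtbp (0.932), Rsad2 (0.928) and Ifih1 (0.921), a sensor of viral RNA. These libraries share their treatments, so the values hold the split between VEH and LPS as well as the differences between mimics.

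Of the Gbp genes that were no members, Gbp2b was at most 0.815 CPM. Gbp10, which shares most of its sequence with Gbp6, was at 0 in all VEH libraries and at 6.91, 12.9 (uncertain), 6.29 and 11.9 (uncertain) CPM in the LPS miR-7a libraries, against 2.16, 0.310, 0.492 and 0.209 CPM with scramble. As read, the 4 miR-7a values all lay above the scramble values, but the uncertain ones would be 1.29 and 1.19 CPM with 3 decimals, below the highest scramble library. Gbp11 was listed under 2 identifiers. The first, ENSMUSG00000092021, a polymorphic pseudogene, was at 2.61, 3.22, 4.39 and 1.53 CPM with miR-7a under LPS, against 0.377, 0, 0.535 and 0.212 CPM with scramble. The second, ENSMUSG00000103344, was at 0 in the 4 LPS miR-7a libraries.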

How the data were processed

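Total RNA of BV-2 cells was extracted with TRIzol, ribosomal RNA was depleted with RiboCop and libraries were made with the CORALL kit, per the labels. The processing notes of the authors name GRCm38, edgeR and limma, per the labels. The reads were aligned and quantified with the nf-core rnaseq workflow, per the methods of the study, and which aligner and counter it ran for these libraries is not given in the sources used here. The authors deposited 1 table of estimated counts (values of another kind than raw counts, since the decimal marks were lost and a final 0 after the mark was dropped, so that 0.0155% of values of 20000 or more ended in 0 where 10% would be usual). Of 590874 values above 0, 28.3% were given back a decimal mark and the others read as whole. The most probable position of the mark was taken, given the gene's level in other libraries of its group and treatment. This pulls uncertain values towards the group, and 1.05% had a probability under 0.9. A gene with such a value in the libraries compared was left out of the test, and keeping the most probable reading was an alternative chosen after the data were seen.

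From the restored values, levels were computed as CPM of the TMM-scaled library size, and the floor was 3 counts over the libraries of a group. Pairs of groups were compared with limma 3.58.1 (R 4.3.3) with voom weights on the 2 groups, after a filter (minimum count 10, minimum total 15), and interactions on 4 groups. The SE is limma's, and intervals are 2 SE on either side. Median-of-ratios factors, no filter, limma-trend with a pseudocount of 0.5, 1 fit over 32 libraries, 1 set of library sizes in the restoration, a probability of 0.99, a replicate block and each library left out were alternatives. Leaving out the 3 libraries of over 30% structural RNA was added after the data were seen. Replicate numbers came from the titles, and they were taken to pair the libraries where each same-numbered pair of libraries deviated together (every correlation above 0.1). This held for LPS against VEH with scramble (lowest 0.206) and miR-29a (0.206), for each mimic against scramble under LPS (0.152 with miR-146a, 0.308 with miR-29a and 0.296 with miR-7a), for miR-29a against scramble under VEH (0.134), and for miR-29a (0.134) and miR-7a (0.144) against miR-146a under LPS. In the other comparisons a correlation lay below 0.1, and the numbers were not taken to pair the libraries. For miR-29a and miR-7a under LPS the correlations ran from 0.0871 to 0.515. A low correlation does not show that libraries were unpaired, so pairing was not settled there. No 2 libraries held identical values. The fit was tested on simulated data. The named genes were the 8 members, other Gbp genes, the called genes of highest fold in fixed pathway lists, and those most like the members, with exceptions marked in the text. A gene of the pathway lists is not reported here. Members and lists were chosen with earlier results of these data known. Python 3.11.15, numpy 2.4.6, pandas 2.3.3 and scipy 1.17.1 were used.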

Additional observations from a re-analysis of the deposited data

Results flagged for a closer look

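In groups of 4 libraries, a library stood apart from the other 3 by more than Dixon's 95% limit in 9 of 60 groups of a member's values and in none of the 8 groups of library totals, where chance gives about 1 in 20 groups. In 5 of the 9 the other 3 libraries were at 0, so that a single value above 0 passes the limit by construction and the chance rate does not apply, and the other 4 are named first. Of the groups of the 9 entries, 6 were left out for an uncertain value and 6 held only values of 0. Under LPS with scramble, Gbp9 was 15.1 CPM in replicate 4 against 21.4 to 22.7 CPM in the others. In the same group Gbp8 was 17.8 CPM in replicate 3 against 11 to 11.7 CPM. Gbp5 was 6.81 CPM in LPS miR-7a replicate 3 against 2.20 to 2.81 CPM. Gbp3 was 0.303 CPM in VEH miR-29a replicate 2 against 3.13 to 3.33 CPM. Gbp5 was also alone above 0 at 0.698 CPM in VEH miR-7a replicate 2 and at 0.303 CPM in VEH miR-29a replicate 2, where each value stood for 1 read. The second Gbp6 identifier, ENSMUSG00000079362, was above 0 in a single library of 3 LPS groups, at 7.84 CPM in miR-7a replicate 2, 1.12 CPM in miR-29a replicate 4 and 2.30 CPM in miR-146a replicate 2.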

How the results depend on the processing

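The number of members called under LPS against VEH was 5 with scramble and 3 with a restoration probability of 0.99, which left only 3 members to test. With miR-7a it was 7, and 1 without the libraries of over 30% structural RNA, which left a lone VEH library. With miR-146a it was 4, and 2 at a probability of 0.99, of 3 tested. Under LPS, miR-7a against scramble gave 3 calls (2.69% of all genes called). A fit over 32 libraries gave 5 (3.31%) and the replicate block 6 (8.96%), where the cause was not tested. The block gave 1 call for miR-146a against scramble under LPS (9.89%), none without it (2.2%), and added 2 for miR-29a (10%, 4.59% without it). It changed no other call of a member where the numbers were taken to pair the libraries. At a probability of 0.99, miR-29a against miR-7a gave 0 calls instead of 1, since Gbp4 then left the test.

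Leaving out a library at a time gave these calls, with the share of all genes called in either direction in parentheses. For LPS against VEH there were 5 to 7 of 5 or 7 tested with scramble (9.14% to 22.3%). There were 7 to 8 of 7 or 8 with miR-29a (17.5% to 29.7%), and 3 to 4 of 5 or 6 with miR-146a (2.27% to 4.02%). With miR-7a there were 3 to 7 of 7 or 8 (3.41% to 6.68%). These were 3 of 7 without VEH miR-7a replicate 1 (6.58%), and 4 of 7 without LPS miR-7a replicate 1 (6.68%) or 2 (3.7%). It gave 1 to 4 calls for miR-7a and 2 to 4 for miR-29a against scramble under LPS, both lowest without LPS scramble replicate 4. It gave 4 to 6 for miR-29a against miR-146a (lowest without LPS miR-146a replicate 3), 2 to 4 for miR-7a against miR-146a, 1 to 1 for miR-29a against miR-7a and 0 to 0 for the others. Among single calls, Gbp5 with miR-7a (LPS against VEH) was lost in 7 of 8 such fits, Gbp8 in 6 and Gbp4 in 4, Gbp3 with miR-146a in 7, and under LPS Gbp6 with miR-7a in 4 and with miR-29a in 5. Against miR-146a, Gbp9 was lost in 5 and Gbp5 in 4 with miR-7a, and Gbp9 in 3 and Gbp2 in 2 with miR-29a.

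The difference of Gbp2 between miR-7a and scramble under LPS changed sign without the filter (-0.018), with median-of-ratios factors (-0.0011) and at a probability of 0.99 (-0.00226), and lay between -0.16 and 0.19 with a library left out. That of Gbp8 between miR-29a and miR-146a was 0.000658 in a fit over 32 libraries and lay between -0.17 and 0.10 with a library left out, and that of Gbp7 between miR-29a and miR-7a between -0.39 and 0.065.

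Over all genes, the replicate block raised the number called from 350 to 1166 for miR-7a, from 606 to 1327 for miR-29a and from 277 to 1246 for miR-146a against scramble under LPS (159 for miR-146a with limma-trend). Between mimics it raised it from 469 to 1207 (miR-29a and miR-7a), from 1477 to 3222 (miR-29a and miR-146a) and from 773 to 2587 (miR-7a and miR-146a), and under VEH from 19 to 361, from 2 to 65 and from 239 to 873 for miR-7a, miR-29a and for miR-146a. A fit over 32 libraries gave 852 and 1360 for the first and last pair of mimics, 198, 80 and 1503 under VEH, and 870 instead of 543 for LPS against VEH with miR-146a. For LPS against VEH with miR-7a, 748 genes were called, 7966 without the filter (7016 of them lower), 1127 in the fit over 32 libraries, 1818 with the block and 98 without the libraries of over 30% structural RNA. The interactions gave 11, 3 and 0 calls, and 45, 17 and 0 with the block. The numbers were not taken to pair the libraries of miR-29a and miR-7a under LPS, of miR-7a or miR-146a and scramble under VEH, of LPS and VEH with miR-7a, or of the interactions. There the block stands for a shared number whose pairing was not settled. Other counts that moved by over 1.5 times, apart from leaving out a library, were those under VEH with miR-7a (3 to 77) and miR-29a (1 to 4), with miR-146a without the filter (401), and of the interactions with miR-7a (6 to 19) and miR-29a (5 to 6). With a library left out, the genes called for LPS against VEH numbered 1105 (without LPS scramble replicate 4) to 2865 with scramble, 420 (without VEH miR-7a replicate 3) to 812 with miR-7a, 2194 to 3651 with miR-29a and 277 (without VEH miR-146a replicate 3) to 504 with miR-146a. Against scramble under LPS they numbered 66 to 379 with miR-7a and 151 to 664 with miR-29a, both lowest without LPS scramble replicate 4, and 18 (without LPS miR-146a replicate 3) to 257 with miR-146a. Under VEH they numbered 8 to 231 with miR-7a (highest without VEH miR-7a replicate 1), 1 to 6 with miR-29a and 0 (without VEH miR-146a replicate 3) to 1205 with miR-146a, the highest of these last 2 without VEH scramble replicate 1. Between mimics they numbered 206 (without LPS miR-7a replicate 3) to 690 for miR-29a and miR-7a, 690 (without LPS miR-146a replicate 3) to 1578 for miR-29a and miR-146a, and 207 (without LPS miR-7a replicate 3) to 779 for miR-7a and miR-146a. The interactions gave 6 to 171 with miR-7a (highest without VEH miR-7a replicate 1), 0 to 4 with miR-29a and 0 to 77 with miR-146a (highest without VEH scramble replicate 1). Median-of-ratios factors moved the median of all genes by under 0.1 in each comparison. The median of all genes in the interaction with miR-7a was 0.14, and 0.01 with the most probable readings. Low counts kept Gbp5 out of the tests of LPS against VEH with scramble and miR-146a, and uncertain readings kept Gbp4 out of them.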
